A study of Mus musculus with 16 samples.

Results

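The SIBLING proteins (small integrin-binding ligand, N-linked glycoproteins) are acidic phosphoproteins of bone and tooth matrix. Their rows were read from gene counts of mouse tibial cortical bone: Ibsp, Dmp1, Mepe and Spp1, chosen by gene name, which are 4 of the 47517 rows in the count files. The 16 libraries were both tibiae of 8 male mice 16 weeks old, 4 of them labelled Ctrl and the other 4 NT3-Cre+ (called NT3 here); the left tibia was non-loaded and the right one loaded. The title of the series places the work in mice with NIK, the NF-kB inducing kinase, activated in cells of the osteolineage. What the NT3 allele is, what drives its Cre and which alleles Ctrl mice carry is not given in the sources used here. The loaded limb received axial compression for 9 days with 1200 cycles daily, at a peak force of 8.7 N in Ctrl and 10.0 N in NT3, forces matched to 1 target strain of -2000 microstrain. All bones were collected 4 hours after the last bout, with muscle removed and marrow spun out.

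As background, bone is built as a collagen scaffold that is then filled with mineral, and the SIBLING proteins take part in that filling. Ibsp (bone sialoprotein) promotes the first mineral crystals and is made by osteoblasts, the cells that lay down bone. Dmp1 (dentin matrix protein) is made by osteocytes, the cells buried in bone, and is needed for mineralization and phosphate balance. Mepe (matrix extracellular phosphoglycoprotein) is another osteocyte product, and a peptide cut from it restrains mineralization. Spp1 (osteopontin) restrains crystal growth and binds integrins and CD44 on cells, and macrophages and osteoclasts make it as well as bone-forming cells. Bone loading is known to change the transcripts of several of these genes.

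The value of a row may not measure the messenger RNA it is named for. Of 1224 rows averaging at least 100 fragments, 1076 (87.9%) overlapped exons of an opposite-strand gene, against 15.2% of 44026 other rows, and Actb held only 11 to 33 fragments a library. Row counts may therefore be of the opposite strand. None of the 4 member rows, nor Dspp, has an annotated gene opposite its exons, so no annotated gene on the other strand could be their source, but the files do not say on which strand of the gene they lay. Libraries held 758394 to 1064391 fragments. Defining rows of the labelled tissue were mixed: Sost held 4 to 47 fragments and Col1a1 held 34 to 430, whereas Bglap held 0 to 4, Pdpn 0 to 4 and Fgf23 0 to 1. Each level below is of a row, and the counts are from bulk bone, in which fewer cells of a type and less RNA per cell cannot be told apart.

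The family lies in 1 tandem cluster on chromosome 5, with every member on the plus strand (GRCm38 coordinates). Dmp1 (ENSMUSG00000029307.7) covers 104202613 to 104214102 with 6 exon blocks. Ibsp (ENSMUSG00000029306.8) covers 104299171 to 104311469 with 7 exon blocks. Mepe (ENSMUSG00000053863.3) covers 104325329 to 104338611 with 3 exon blocks. Spp1 (ENSMUSG00000029304.14) covers 104435118 to 104441050 with 8 exon blocks. The cluster spans 238.4 kb from the start of Dmp1 to the end of Spp1, and Ibsp and Mepe are its closest pair, 13.9 kb apart. The fifth gene of the family, Dspp, known mainly for dentin, starts 31.9 kb before Dmp1 and held 0 to 5 fragments a library. A count of 0 allows up to 3 fragments, which is 2.82 to 3.96 CPM in these libraries (CPM, fragments scaled to 1000000 a library).

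**Figure D1:**
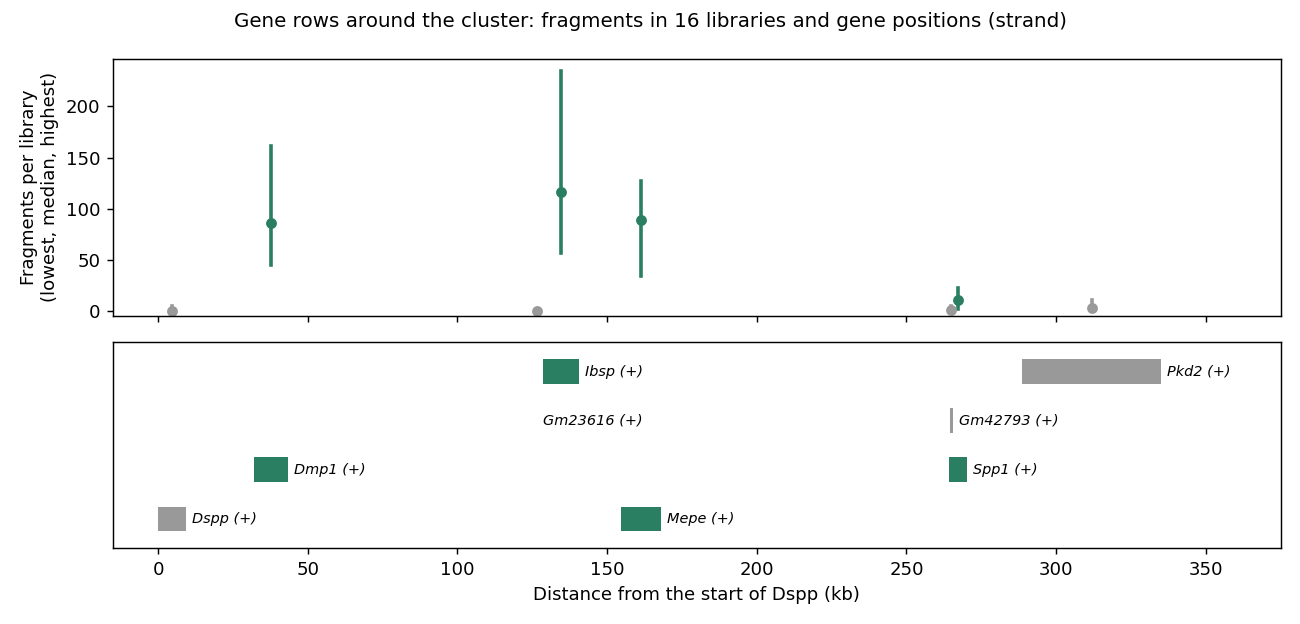
Gene rows around the cluster. The upper panel gives the lowest, median and highest fragments per library over 16 libraries for each row, and the lower panel gives gene positions in kb from the start of Dspp with the strand in brackets; members are green. Ibsp, Dmp1 and Mepe reached 127 to 235 fragments in their highest library, while Spp1 reached 23 and Dspp 5.

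Fragments ran from 57 to 235 a library in Ibsp, 45 to 161 in Dmp1, 34 to 127 in Mepe and 2 to 23 in Spp1. Levels are given as CPM scaled between libraries by TMM, except sums of rows for markers of other cell types, which were not scaled by TMM. Levels of different genes were compared per kb of exon. In non-loaded Ctrl limbs, Mepe stood at 65.0 ± 13.6 CPM per kb, Ibsp at 50.7 ± 16.1, Dmp1 at 30.8 ± 5.84 and Spp1 at 4.72 ± 1.34 (mean ± SD, n = 4). Mepe and Ibsp differed there by less than their spread. In loaded Ctrl limbs Ibsp stood first at 100.8 ± 32.6 CPM per kb, with Mepe at 63.3 ± 11.7, Dmp1 at 50.8 ± 7.87 and Spp1 at 4.195 ± 3.17. Spp1 was the lowest of the members in 16 of 16 libraries, Ibsp lay above Dmp1 in 15 and Mepe above Dmp1 in 14, while Ibsp lay above Mepe in 11. These orders compare rows, and would not hold for messenger RNA if rows differ in the share of a gene's fragments they take.

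The sequences before 3 of the starts are shown because Dmp1, Ibsp and Mepe are neighbours of similar row level. Their load responses are given below and were not tested against each other. All 4 members were found in the RefSeq promoter table (GRCm38.p6), with 6 start sites. Searched on both strands in the 250 bases before each start were TGTGGT (RUNX core, in 14.0% of 32851 promoter windows of this length), TAATTA (homeodomain core, 4.84%), TATAAA (12.4%) and CCAAT (33.8%). None of these words contains another. Capitals mark the matches, written as they read on the gene's strand; a match to a word on the other strand therefore shows as its reverse complement. The RefSeq start of Ibsp lies 116 bases inside the GENCODE first exon, so only a piece of 24 bases around its CCAAT match is shown; the Dmp1 window, at the later of its RefSeq starts, ends at the GENCODE start.
Ibsp, chr5:104299224-104299247, plus strand: acagctgtgATTGGctgttgagag
Dmp1, chr5:104202367-104202612, plus strand: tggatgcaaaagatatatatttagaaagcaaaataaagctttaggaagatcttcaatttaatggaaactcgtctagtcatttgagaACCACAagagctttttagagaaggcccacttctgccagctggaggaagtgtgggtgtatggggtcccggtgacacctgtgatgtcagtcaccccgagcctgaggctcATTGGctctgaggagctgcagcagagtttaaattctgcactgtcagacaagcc
Mepe, chr5:104325079-104325328, plus strand: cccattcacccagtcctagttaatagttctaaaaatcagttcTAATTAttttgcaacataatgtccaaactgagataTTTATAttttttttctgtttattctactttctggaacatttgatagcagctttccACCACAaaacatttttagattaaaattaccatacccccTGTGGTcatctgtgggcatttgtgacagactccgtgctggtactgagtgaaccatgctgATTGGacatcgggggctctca

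Each of the 4 genes had ATTGG, the reverse complement of the CCAAT word, before a start, with its first letter 54 bases before the start in Ibsp, 57 bases before the later start in Dmp1, 21 in Mepe and 46 before the first start in Spp1. Dmp1 also had it 101 bases before its first start. The RUNX word occurred in Dmp1 (164 bases before the later start), in Mepe (80 and 118) and in Spp1 (128). It was not in the Ibsp window. Matches to the TATA word are not listed here. The homeodomain word occurred in Mepe at 208 and, before the second Spp1 start, at 122. A match describes letters only.

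Loading of Ctrl tibiae was called for 2 of the 4 member rows, Ibsp and Dmp1, both higher, where 4.07% of the 7192 rows tested were called and 3.07% were called higher. A row was called at an adjusted p below 0.05 (edgeR quasi-likelihood F test, Benjamini-Hochberg over all rows tested). Loading of NT3 tibiae was called for none of the 4, where 0.417% of rows were called. For the difference between these responses 1 of 4 was called, Ibsp, where 0.139% were called, and for the mean response of both genotypes 2 of 4 were called, Ibsp and Dmp1, where 4.39% were called (3.24% higher and 1.15% lower). Comparing genotypes within a limb, none of the 4 was called. There, 0.579% of 6220 rows were called in non-loaded limbs (0.418% higher in NT3) and 2.65% of 6080 in loaded limbs (1.32% higher and 1.33% lower). At an unadjusted p below 0.05, the genotype comparison held Spp1 in non-loaded limbs (0.000586), beside 486 of 6220 rows in all, and all 4 members in loaded limbs (0.00172 to 0.0481), beside 808 of 6080. Loading in NT3 held Mepe (0.000751) and Dmp1 (0.00169), beside 546 of 7192 rows. Mepe was also under that level for the difference (0.0154, beside 472 rows) and for the mean (0.0080, beside 1130 rows). Spp1 passed the filter on low counts only through its NT3 libraries, so its testing is tied to the group in which it is high.

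**Figure D2:**
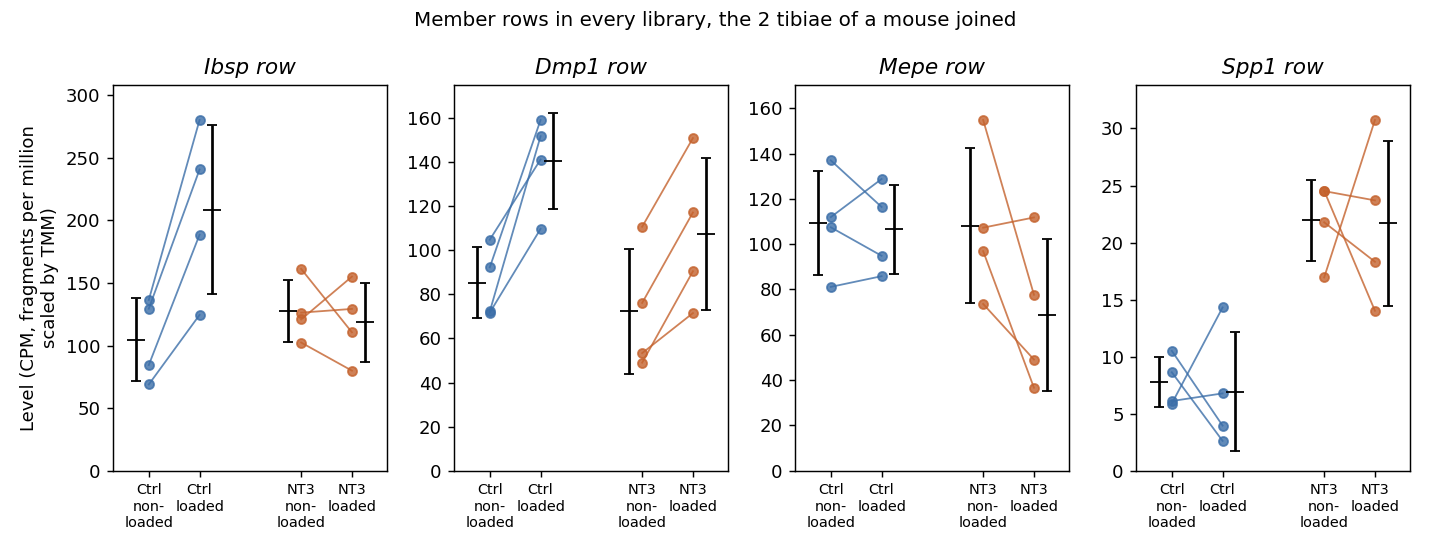
Level of each member row in CPM in every library. Lines join both tibiae of a mouse, and black marks give mean ± SD of 4 libraries; blue is Ctrl and orange is NT3. Dmp1 lines go up in 8 of 8 mice, Ibsp lines go up in 4 of 4 Ctrl mice and in 2 of 4 NT3 mice.

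Ibsp, the crystal-promoting member, rose with loading in every Ctrl mouse and showed no such change in NT3. Its row held 136, 68.9, 129 and 84.5 CPM in non-loaded Ctrl mice 1 to 4 and 280.2, 125, 241 and 189 CPM in their loaded limbs. The loaded limb was 1.81 to 2.23 times its partner, although the groups overlapped because mouse 2 was low in both limbs. The fitted fold was 1.98 (log2 0.99, SE 0.16, edgeR adjusted p = 1.5e-05). It was called in all 16 alternative fits of this comparison (adjusted p 7.2e-07 to 0.032).

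In NT3 mice 1 to 4 the Ibsp row held 126, 121, 161 and 102 CPM in non-loaded and 129, 155, 111 and 79.9 CPM in loaded limbs. Mice 1 and 2 were higher in the loaded limb, at 1.02 and 1.28 times the partner, and mice 3 and 4 were lower, at 0.686 and 0.780 times. The fitted log2 change was -0.12 (SE 0.16, adjusted p = 0.95), with a 95% interval of -0.44 to 0.21 that leaves out a change of the size seen in Ctrl. The difference between the responses was -1.10 log2 units (SE 0.22, 95% interval -1.55 to -0.66, edgeR adjusted p = 0.0115), the smallest p of the 4 members and rank 7 among all rows. The call was lost without NT3 mouse 3 (-0.96, adjusted p = 0.17) and without the pairing of limbs by mouse (-1.09, adjusted p = 0.94). Of the 10 rows called for this difference, all lower in NT3, the others were Col1a2 and 8 rows that lie opposite other genes.

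Between genotypes, Ibsp stood at 105 ± 33.2 CPM in Ctrl and 128 ± 24.6 in NT3 in non-loaded limbs (log2 0.27, SE 0.21, adjusted p = 0.86). In loaded limbs it stood at 209 ± 67.4 and 119 ± 31.7 CPM (n = 4 each). The loaded groups overlapped, since Ctrl mouse 2 (125 CPM) lay below 2 of the NT3 mice. The loaded difference was -0.81 log2 units (SE 0.23) and did not pass (adjusted p = 0.079). It passed in 6 of 14 alternative fits, with adjusted p from 1.9e-04 to 0.25, among them those without Ctrl mouse 2 (-0.99, adjusted p = 0.0013) and without NT3 mouse 2 (-0.95, adjusted p = 0.026).

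Dmp1, the osteocyte phosphoprotein, was higher in the loaded tibia than in its partner in 8 of 8 mice. Ctrl mice 1 to 4 had 71.7, 92.3, 72.3 and 105 CPM in non-loaded and 109.7, 159, 152 and 141 CPM in loaded limbs. These groups did not overlap, with 105 CPM the highest non-loaded and 109.7 CPM the lowest loaded value. The share of all rows that separate in this way, or that are higher in 8 of 8 mice, was not counted. The rise in Ctrl was 1.65-fold (log2 0.72, SE 0.17, edgeR adjusted p = 0.0045), and it no longer passed without Ctrl mouse 2 (0.69, adjusted p = 0.052), without Ctrl mouse 3 (0.61, adjusted p = 0.099) or without the pairing (0.72, adjusted p = 0.080).

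NT3 mice 1 to 4 had 49.0, 111, 76.1 and 53.3 CPM of Dmp1 in non-loaded and 90.5, 151, 117 and 71.5 CPM in loaded limbs. Every loaded limb was above its partner, by 1.34 to 1.85 times, in groups that overlapped, with mouse 2 highest in both limbs. The log2 change was 0.59 (SE 0.18), which did not pass (adjusted p = 0.17). The difference between the responses was -0.13 (SE 0.24, adjusted p = 0.97), with a 95% interval of -0.62 to 0.36, so a difference of the size seen for Ibsp lies outside it. Over both genotypes Dmp1 rose by 0.65 log2 units (SE 0.12, edgeR adjusted p = 2.5e-04) and Ibsp by 0.44 (SE 0.11, adjusted p = 0.0115). The Ibsp mean was lost without NT3 mouse 1 (0.41, adjusted p = 0.056) and without NT3 mouse 2 (0.34, adjusted p = 0.093), and it averages unequal responses. NT3 and Ctrl did not differ past the test in Dmp1 in non-loaded (-0.25, SE 0.23, adjusted p = 0.89) or loaded limbs (-0.39, SE 0.19, adjusted p = 0.37).

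Mepe, the osteocyte member that yields a mineral-restraining peptide, was not called in any comparison. Its row held 81.1, 107, 137 and 112 CPM in non-loaded and 85.9, 94.9, 116 and 129 CPM in loaded limbs of Ctrl mice 1 to 4. Mice 1 and 4 were higher and mice 2 and 3 lower in the loaded limb, with a log2 change of -0.03 (SE 0.18, 95% interval -0.40 to 0.33, adjusted p = 0.96). In NT3 mice 1 to 4 it held 96.9, 107, 155 and 73.6 CPM in non-loaded and 36.6, 112, 77.7 and 49.1 CPM in loaded limbs.

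Mepe was thus lower in the loaded limb of NT3 mice 1, 3 and 4, at 0.378 to 0.667 times the partner, and 1.04 times in mouse 2. The log2 change of -0.70 (SE 0.19) did not pass (adjusted p = 0.11). It passed without NT3 mouse 2 (-1.01, adjusted p = 0.013). The difference from the Ctrl response was -0.67 (SE 0.27, adjusted p = 0.64), and the mean response of both genotypes was -0.37 (SE 0.13, adjusted p = 0.12), which passed without NT3 mouse 2 (-0.53, adjusted p = 0.016). Genotypes stood at 109 ± 22.9 and 108 ± 34.1 CPM in non-loaded limbs and 106 ± 19.6 and 68.8 ± 33.4 in loaded ones, Ctrl first (n = 4 each). The loaded difference was -0.64 (SE 0.25, adjusted p = 0.22), and it passed without NT3 mouse 2 (-0.97, adjusted p = 0.020).

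**Figure D3:**
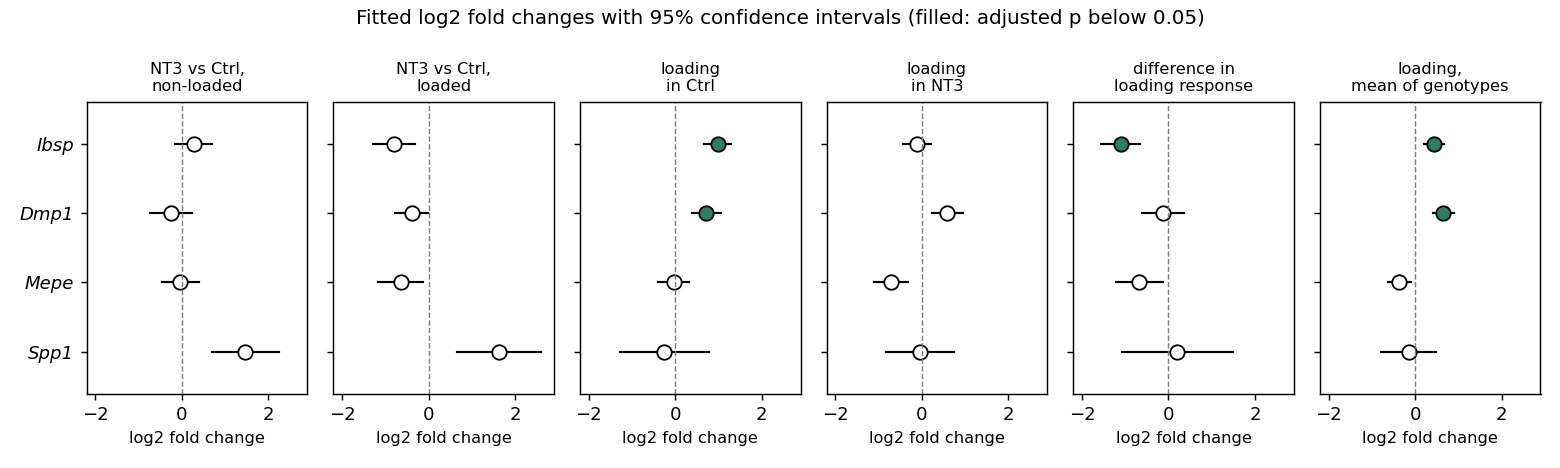
Fitted log2 fold changes of the member rows in the 6 comparisons, with 95% confidence intervals as bars; filled points have an adjusted p below 0.05. Negative values in the difference panel are smaller responses in NT3. Ibsp is filled in 3 panels, Dmp1 in 2, and Mepe and Spp1 in none.

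Spp1, the integrin ligand, had few fragments, and its higher mean in NT3 passed in neither limb in the fit as designed. It was tested only because its NT3 libraries passed the filter on low counts. Non-loaded Ctrl mice 1 to 4 had 5, 9, 8 and 6 fragments (5.88, 10.5, 8.63 and 6.11 CPM), and non-loaded NT3 mice had 20, 15, 19 and 23 (21.8, 16.9, 24.5 and 24.5 CPM). These groups did not overlap, but the share of all rows that separate in this way was not counted. The fitted ratio was 2.77 (log2 1.47, SE 0.38) and did not pass (adjusted p = 0.083); over 14 alternative fits the adjusted p ran from 0.059 to 0.30 and none passed.

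In loaded limbs the Spp1 row held 12, 4, 2 and 6 fragments in Ctrl (14.3, 3.95, 2.62 and 6.78 CPM) and 17, 22, 18 and 10 in NT3 (18.3, 30.7, 23.7 and 14.0 CPM). The groups overlapped, with Ctrl mouse 1 above NT3 mouse 4. Counts this low are imprecise: the exact Poisson 95% interval is 0.242 to 7.22 for 2 fragments and 1.09 to 10.2 for 4, covering counting error only. The loaded difference was 1.63 log2 units (SE 0.48, adjusted p = 0.060), which passed without Ctrl mouse 1 (2.23, adjusted p = 0.018) and without NT3 mouse 4 (1.78, adjusted p = 0.043). Loading changed it by -0.25 in Ctrl (SE 0.51, adjusted p = 0.88) and -0.04 in NT3 (SE 0.39, adjusted p = 0.99), and the mice of each genotype went both ways. The Gm42793 row lies inside Spp1 on the same strand with 0 to 5 fragments, and how fragments over both were assigned is not given in the sources used here.

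Without TMM scaling, the 10 rows named for osteoclast genes summed in non-loaded limbs to 16.0 to 25.5 CPM (Ctrl) and 30.04 to 56.4 CPM (NT3). In loaded limbs they summed to 20.6 to 25.4 CPM (Ctrl) and 15.7 to 36.9 CPM (NT3). The non-loaded ranges of the genotypes did not overlap, but the share of rows or row sums that separate in this way was not counted. None of the 10 passed the filter on low counts, and Acp5 held 0 to 6 and Ctsk 0 to 18 fragments. Their part in the Spp1 values was not tested.

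Ratios between members within a library need no scaling between libraries; the pairs were looked at after the values had been seen, and no test was made. The Ibsp to Mepe ratio was higher in the loaded limb of 8 of 8 mice, with a log2 change of 0.23 to 1.44 (median 0.96). The Dmp1 to Mepe ratio was also higher in 8 of 8, by 0.23 to 2.29 (median 0.99). Loaded limbs therefore held more Ibsp and Dmp1 row fragments per Mepe fragment in both genotypes. The other pairs went both ways. The loaded limb was higher in 6 mice for Dmp1 to Spp1, 5 for Ibsp to Spp1, 4 for Mepe to Spp1 and 3 for Ibsp to Dmp1. The share of all row pairs that go 1 way in 8 of 8 mice was not counted.

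No test was made of the ratios between genotypes. Of the 2 rows in the Ibsp to Mepe ratio, the difference in loading response was called for Ibsp (edgeR adjusted p = 0.0115). It did not pass for Mepe (adjusted p = 0.64). In Ctrl, the change of the Ibsp to Mepe ratio was 1.02 ± 0.0818 (SD, n = 4) with Mepe nearly level, and in NT3 it was 0.60 ± 0.56 with Mepe lower in 3 mice. The Ibsp to Dmp1 ratio went up in Ctrl mice 1, 2 and 4 and down in mouse 3 (mean log2 change 0.26 ± 0.40), and went down in all 4 NT3 mice (-0.72 ± 0.45). The genotypes overlapped in this change, since Ctrl mouse 3 (-0.18) lay below NT3 mouse 2 (-0.09). The ratio was 1.31 ± 0.620 in non-loaded and 1.56 ± 0.740 in loaded Ctrl limbs, and 1.93 ± 0.621 and 1.13 ± 0.212 in NT3, so NT3 stood above Ctrl in mean in the non-loaded and below it in the loaded limb. The summed level of the 4 rows was 307 ± 29.1 CPM in non-loaded and 462 ± 56.5 in loaded Ctrl limbs, and 330.1 ± 71.3 and 317 ± 99.6 in NT3.

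**Figure D4:**
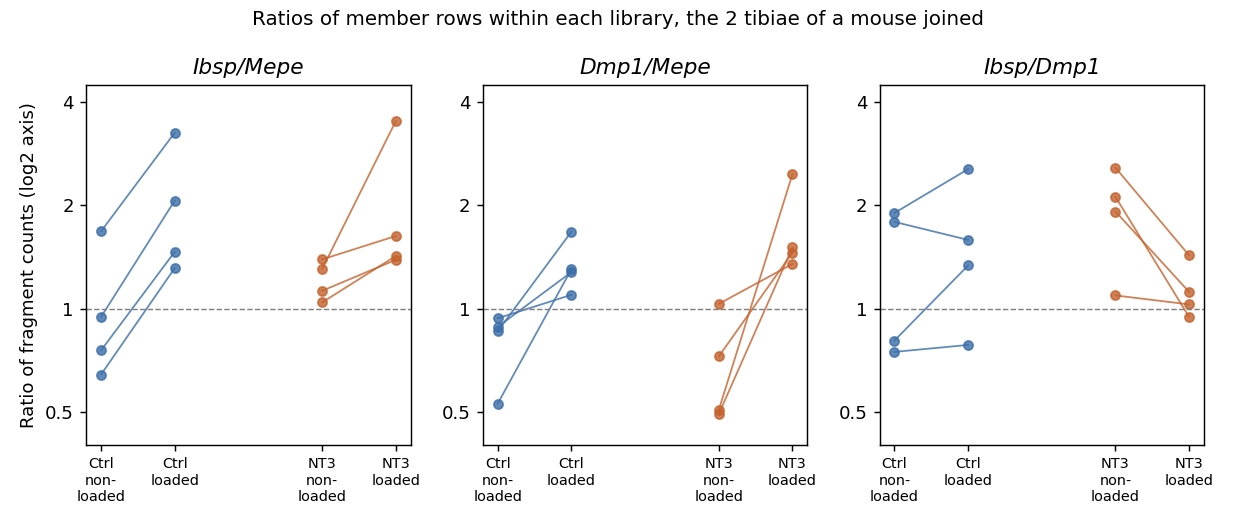
Ratios of fragment counts between member rows within each library, on a log2 axis, with both tibiae of a mouse joined; blue is Ctrl and orange is NT3. Ibsp/Mepe and Dmp1/Mepe lines go up in 8 of 8 mice, and Ibsp/Dmp1 lines go down in 4 of 4 NT3 mice.

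Sums of marrow marker rows are CPM of all fragments in a library, without TMM. On that scale the 5 rows opposite marrow genes summed lower in the loaded limb of all 8 mice. Ctrl sums ran from 5310 to 9736 CPM in non-loaded and 3975 to 5970 in loaded limbs. NT3 sums ran from 5842 to 8398 and 4460 to 5961 CPM. Direction depended on that scale in Ctrl mouse 4 and NT3 mouse 2. Their TMM factors were 1.14 and 1.02 in non-loaded and 0.98 in loaded limbs. Of the 22 rows named for marrow genes, 6 were tested for loading in Ctrl and 1 was called, Alas2, which was higher (0.54). The Alas2 row itself lies opposite Apex2 and Mir3620. Of the rows opposite marrow genes, 3 were tested and Gm11505, opposite Mpo, was lower (-0.75). The defining marrow rows Elane and Hbb-bs held 0 to 2 and 0 to 9 fragments. With the summed marrow rows as a covariate, an alternative chosen after seeing the data, Ibsp in Ctrl was 1.18 (adjusted p = 0.0038) and the Ibsp difference -1.15 (adjusted p = 0.0066). Dmp1 in Ctrl was 0.63 (adjusted p = 0.32) and over both genotypes 0.58 (adjusted p = 0.26), both no longer called, and Ibsp over both genotypes was 0.61 (adjusted p = 0.17).

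Rows opposite skeletal muscle genes, also without TMM, summed in Ctrl to 1695 to 12181 CPM (non-loaded) and 1192 to 13441 CPM (loaded). In NT3 they summed to 2612 to 15789 CPM and 1133 to 4745 CPM. The loaded limb was lower in 3 of 4 mice of each genotype. Of the 16 rows named for muscle genes, 8 to 10 were tested, and of the 9 opposite rows 7 were. None of those tested was called in any comparison. The defining rows Acta1 and Ckm held 0 to 5 and 0 to 12 fragments. With summed muscle rows as a covariate, chosen in the same way, Ibsp in Ctrl was 0.98 (adjusted p = 2.7e-05), Dmp1 in Ctrl 0.71 (adjusted p = 0.0070) and the Ibsp difference -1.05, which no longer passed (adjusted p = 0.066). In loaded limbs the genotype difference of Ibsp was -0.94 with the marrow covariate (adjusted p = 1.9e-04) and -0.86 with the muscle covariate (adjusted p = 0.014).

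Genes that act on or with the family were counted from lists by row name. Of 14 rows for the kinases and proteases that modify SIBLING proteins, 6 were tested and none was called in any comparison; they include Fam20c, the kinase that phosphorylates secreted proteins, and Furin. The Fam20c row stood at 20.3 ± 7.03 and 36.8 ± 7.66 CPM in non-loaded and loaded Ctrl and at 26.9 ± 12.2 and 23.1 ± 5.65 in NT3 (n = 4 each), and it did not pass for loading in Ctrl (0.87, SE 0.31, adjusted p = 0.11) or for the difference (-1.04, SE 0.44, adjusted p = 0.67). Phex, a protease on the same list, held 3 to 9 fragments. Of 9 receptor rows (integrins and Cd44), 3 or 4 were tested and none was called. Of 3 rows opposite receptor genes, Cerkl, opposite the integrin gene Itga4, was lower with loading in Ctrl (-0.62, SE 0.13, adjusted p = 0.0022).

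Of 12 phosphate and mineral enzyme genes listed, 11 had a row, 3 to 5 were tested and none was called. Opposite them, 2 of 5 tested rows rose in both genotypes: Abi3, opposite the phosphatase gene Phospho1 and others, by 2.44 log2 units in Ctrl and 1.39 in NT3, and Prmt7, opposite the sphingomyelinase gene Smpd3, by 2.67 and 1.79. Both were called for the difference, at -1.056 and -0.88, as Ibsp was. Of 11 rows for transcription factors known at SIBLING promoters, such as Runx2 and Sp7, 4 were tested and none was called for loading in Ctrl, in NT3, for their difference or for their mean.

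Among the osteoblast matrix rows, Col1a1, the main collagen chain of bone, rose by 2.06 log2 units with loading in Ctrl and 1.19 in NT3. Col1a2 rose by 1.79 and Sparc, which binds collagen and mineral, by 1.85 in Ctrl (adjusted p = 6.4e-07). These changes in Ctrl exceeded the 0.99 of Ibsp in size; the differences between genes were not tested. By counts, 3 of 8 tested osteoblast rows were called higher in Ctrl (median 0.20, against -0.03 over all rows). Of 5 tested osteocyte rows other than Dmp1 and Mepe 1 was, Gja1 (1.97, SE 0.51, adjusted p = 0.015), at 1 to 32 fragments a library. The median of those 5 was 0.13, and Sost among them was at -0.40 (SE 0.34, adjusted p = 0.64). Of 3 tested chondrocyte rows, Col11a1 (1.98) and Col11a2 (1.54) also rose in Ctrl, and Col11a2 rose in NT3 (1.68). The other tested row, Col10a1, held 125 to 194 fragments a library and was called in no comparison. Col2a1 held 0 to 8 and Acan 0 to 5 fragments.

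No row beside the cluster passed a test of loading. On chromosome 5, Aff1 changed by -0.34 with loading in Ctrl (SE 0.33, adjusted p = 0.70), Nudt9 by -0.10 (adjusted p = 0.95) and Gm43545, which lies opposite Nudt9, by 0.25 (adjusted p = 0.67). Gm26703 changed by 0.56 (SE 0.50, adjusted p = 0.67). No neighbour row was called in any comparison, and Klhl8, Pkd2, Sparcl1, Hsd17b11 and Hsd17b13 held at most 13 fragments a library.

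Likeness of pattern was measured as the root mean square distance between centred log2 CPM over 16 libraries, where 0 is the same pattern, among 4113 rows averaging at least 20 fragments. Ibsp was nearest to Gm22953, opposite Serf2 (0.283), Gm42846, opposite Mxd4 (0.285), and Pomt2, opposite Gstz1 (0.297), against a median of 0.603. The loading values of Gm22953 were 0.62 in Ctrl and -0.03 in NT3; rows near a member were chosen on these same libraries, so their values describe the choice and add no support. The members were not each other's nearest rows: from Ibsp, Dmp1 ranked 1544 (0.565) and Mepe 2242 (0.616).

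Dmp1 was nearest to RP24-225H21.4 (0.263), Gm15907 (0.279) and 1700064H15Rik, opposite Dnajc5b (0.286). The loading values of Gm15907 were 0.82 in Ctrl and 0.70 in NT3. Mepe was nearest to Arf1 (0.338), Gm17035, opposite Ndrg1 (0.341), and Proca1 (0.352). The mean loading value of Gm17035 was -0.33.

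Spp1, at a median distance of 0.860 from other rows, was nearest to Tesk1, opposite the B cell gene Cd72 (0.397), Ms4a6c, opposite BE692007 (0.474), and BC051537, opposite H2-Oa and H2-Pa (0.479). Their NT3 minus Ctrl values in loaded limbs were 1.81 log2 units for Tesk1, 1.55 for Ms4a6c and 1.22 for BC051537. In non-loaded limbs they were 1.058, 0.97 and 0.96 in the same order. Nearness to a low-count row depends on its counting noise as well as on its groups, and no test was made of the distances.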

How the data were processed

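RNA was total RNA depleted of ribosomal RNA, primed at random and read single-end, per the labels' protocols, with a mean RNA integrity number of 5.4. Per the submitters' processing notes, the tools were STAR 2.4.2a, featureCounts 1.4.6 of Subread and DESeq2, with genome build mm10. Values are gene counts made by the authors; neither strand setting nor annotation release is given in the sources used here. Members and lists were chosen with earlier results of these data known.

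Rows were placed on GRCm38 with GENCODE vM21 and called opposite a gene where exons shared at least 20 bases on the other strand. Rows passing filterByExpr (minimum count 10) were scaled by TMM; tests were edgeR's quasi-likelihood F tests with robust dispersion, with Benjamini-Hochberg adjustment over all rows tested. Genotype comparisons used the 8 libraries of a limb. Loading comparisons used all 16 with a replicate block for mouse, taken from the design text. Deviations of the limbs of a mouse had r of 0.045 to 0.178; in 7 of 8 mice this was above r with the loaded limb of any other mouse of that genotype, and in Ctrl mouse 4 it was 0.045 against 0.157. No pair of libraries agreed within sampling noise (chi-square per degree of freedom at least 4.56). The tests were also tried on simulated data. Those used row means and dispersions taken from these data, with no effect of mouse.

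Named were the members in every comparison, list rows where called, up to 6 per list, chromosome 5 neighbours, and the 3 rows most like each member. Fam20c, Furin, Phex, Sost, Col10a1 and the low-count marker rows fall outside that rule and were named after their values were seen. Some results of the transcription factor list and of the promoter search are not reported here. Alternatives were RLE scaling, DESeq2, no filter on low counts, no ribosomal or repeat rows, no replicate block, leaving out each mouse, fits within 1 genotype, and marker covariates, the last pair of kinds added after seeing the data. Software was DESeq2 1.42.0, edgeR 4.0.16, statmod 1.5.0 and limma 3.58.1 under R 4.3.3. P-values of the genotype comparisons measure the spread between mice. In the loading comparisons they measure the spread of the change between limbs, with 1 estimate shared by both genotypes. Both spreads include counting error.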

Additional observations from a re-analysis of the deposited data

Results flagged for a closer look

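The loading response of the Ibsp row differed between genotypes by the test of the difference itself: -1.10 log2 units (SE 0.22, edgeR adjusted p = 0.0115), with the loaded limb higher in 4 of 4 Ctrl and 2 of 4 NT3 mice. Over 15 alternative fits it was called in 12, with adjusted p from 0.0031 to 0.94. NT3 limbs were loaded at 10.0 N and Ctrl limbs at 8.7 N, so force and genotype cannot be told apart here.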

How the results depend on the processing

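Of the member fold changes over all alternatives, 314 kept direction and side of the threshold, 21 turned direction, 11 passed only there and 13 no longer passed. Without a filter on low counts, 71 rows were called between genotypes in non-loaded limbs (36 in the fit as designed) and 17 for the difference (10). In loaded limbs Ibsp between genotypes was then -0.81 (adjusted p = 0.0015), with 1 member called, as with DESeq2 (-0.81, adjusted p = 0.025, 1 member). DESeq2 called 169 rows for loading in Ctrl (293 by edgeR), 17 in NT3 (30) and 197 for the mean (316), with Ibsp there at 0.43 (adjusted p = 0.061) and 1 member called.

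Without the replicate block that pairs limbs, loading in Ctrl called 171 rows and 1 member, with Dmp1 at 0.72 (adjusted p = 0.080), and loading in NT3 called 5 rows. The difference then called 0 rows and 0 members by edgeR, with Ibsp at -1.09 (adjusted p = 0.94), and the mean 205 rows and 1 member, with Ibsp at 0.44 (adjusted p = 0.25). The block changed no other member call.

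With marrow rows as a covariate, 59 rows were called between genotypes in non-loaded limbs, 83 for loading in Ctrl with 1 member, 16 in NT3, 18 for the difference and 67 for the mean with 0 members by edgeR. Dmp1 was 0.63 in Ctrl and 0.58 in the mean, and Ibsp 0.61 in the mean. Ibsp in loaded limbs was -0.94 between genotypes, with 1 member called. Changes that did not pass turned direction for Mepe (0.22) and Spp1 (0.47) in Ctrl, Ibsp (0.033) and Spp1 (0.49) in NT3, and Spp1 in the mean (0.48). With muscle rows, 59 rows were called in non-loaded limbs and 6 for the difference with 0 members; Ibsp was -1.05 there and -0.86 between genotypes in loaded limbs, with 1 member called, and Mepe turned to 4.5e-04 in non-loaded limbs. The cause was not tested.

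Leaving out 1 mouse gave these ranges. Between genotypes in non-loaded limbs, Mepe ran from -0.25 to 0.13 and rows called from 12 to 77. In loaded limbs Ibsp ran from -0.99 to -0.63, Mepe from -0.97 to -0.42, Spp1 from 1.39 to 2.23 and members called from 0 to 2. In Ctrl, Dmp1 ran from 0.61 to 0.84, Mepe from -0.10 to 0.036, Spp1 from -0.89 to 0.12, members from 1 to 2 and rows from 163 to 325. In NT3, Ibsp ran from -0.29 to 0.024, Mepe from -1.01 to -0.50, Spp1 from -0.36 to 0.18, members from 0 to 1 and rows from 17 to 44. For the difference, Ibsp ran from -1.27 to -0.96, Spp1 from -0.17 to 0.84 and members from 0 to 1. For the mean, Ibsp ran from 0.34 to 0.51, Mepe from -0.53 to -0.27, Spp1 from -0.47 to 0.036 and members from 1 to 2. Some values that did not pass kept their direction but moved in size: between genotypes in non-loaded limbs Ibsp ran from 0.12 to 0.45 and Dmp1 from -0.52 to -0.11, in loaded limbs Dmp1 ran from -0.59 to -0.24, and the Dmp1 difference ran from -0.25 to -0.02. At 2 to 23 fragments, depth limits Spp1 most. DESeq2 gave no adjusted p for Spp1 in the difference and in NT3.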
